A study of Mus musculus with 2 samples.

Results

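The genes described here encode proteins of the spliceosome and the heterogeneous nuclear ribonucleoproteins (hnRNPs). They were taken by name, as the probe sets with a single gene symbol that starts with Snrp, Sf3a, Sf3b, Hnrn, Srsf, Sfrs, Prpf or Lsm. This gave 62 genes of the 8721 named genes of the table, measured by 145 of the 14049 probe sets with 1 symbol. The rule uses names and no measured value, although it was set with earlier results of these data known. A probe set is a group of short array probes for one transcript. Where several probe sets measured a gene, the value shown is from the one with the highest mean log2 signal over both arrays. Another 15 probe sets carried several symbols with at least 1 such name and were left out.

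The study compared 2 incubations of epithelial cells from the colon of C57BL/6 mice (an inbred strain) at 7 weeks of age. The control incubation was with PBS, a salt buffer, and the other was with MIF, taken here to be the cytokine macrophage migration inhibitory factor. RNA of each was hybridised to 1 Affymetrix array, so there are 2 arrays and no replicates. No test against a spread between samples is possible, no p-value is given, and precision is limited by having 1 array a group. Dose, duration, number of animals and cell isolation were not stated in the labels used here.

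Splicing removes introns from precursor messenger RNA. It is carried out by small nuclear ribonucleoproteins (snRNPs), particles in which a small nuclear RNA is held by a ring of Sm or LSM proteins and joined by proteins particular to that RNA. The U1 particle reads the start of an intron, the U2 particle with its SF3A and SF3B complexes reads the branch point, and the joined U4, U6 and U5 particles bring the catalytic centre. SR proteins, which carry arginine and serine repeats, and hnRNPs bind the transcript itself and influence which splice sites are used. In the colon, as in other renewing epithelia, these genes are expressed in dividing crypt cells and in differentiated cells.

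Signals are the authors' deposited linear intensities. A difference is the MIF array's log2 signal less that of the PBS array. Signals under a floor of 232, the 40th percentile, were treated as not measurable. On both arrays 59 of the 62 genes exceeded the floor, Lsm14b was under it only on the PBS array, and Prpf3 and Prpf40b lay under it on both arrays and were not assessed. The 60 assessed genes had a median log2 difference of -0.03, from -0.49 for Lsm4 to 0.24 for Srsf4, against a median of -0.01 over all 5837 assessed genes. In all, 54 of the 60 lay within 1.2-fold. At 1.2-fold, 6 were lower on the MIF array (10%), where 6.29% of all assessed genes were, a share that would give 3.77 of 60. None was at least 1.2-fold higher, where 6.82% of all assessed genes were, a share that would give 4.09 of 60. With the columns centred on their medians these shares of all assessed genes were 8.74% lower and 5.16% higher, and the members still numbered 6 and 0. At 1.5-fold none of the 60 was lower or higher, against 0.463% and 0.634% of all assessed genes.

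The 6 genes that were at least 1.2-fold lower were Lsm4, Lsm2 and Lsm3 of the LSM family, Snrpd3 of the Sm ring, Snrpc of the U1 particle and Sf3b5 of the SF3B complex. Each of them encodes a small protein of a snRNP particle, a trait seen only after they were picked by value. Other genes of the Sm and LSM rings did not reach 1.2-fold, such as Snrpe at -0.01, Lsm7 at -0.06 and Lsm8 at 0.02. No SR protein, PRPF or hnRNP gene was among the 6. The log2 difference had an SD of 0.19 over the 5545 genes measurable on both arrays, and the SD between probe sets of one gene was 0.13. The 6 differences lay between -0.27 and -0.49; since the genes were picked by a larger fold than these SDs, this lends them no support, and neither SD measures the spread between cell preparations. When all probe sets of a gene were averaged, neither Snrpd3 nor Sf3b5 reached the floor on either array, so they could not be assessed. The same held for Lsm2 when the floor was raised to the 60th percentile.

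**Figure D1:**
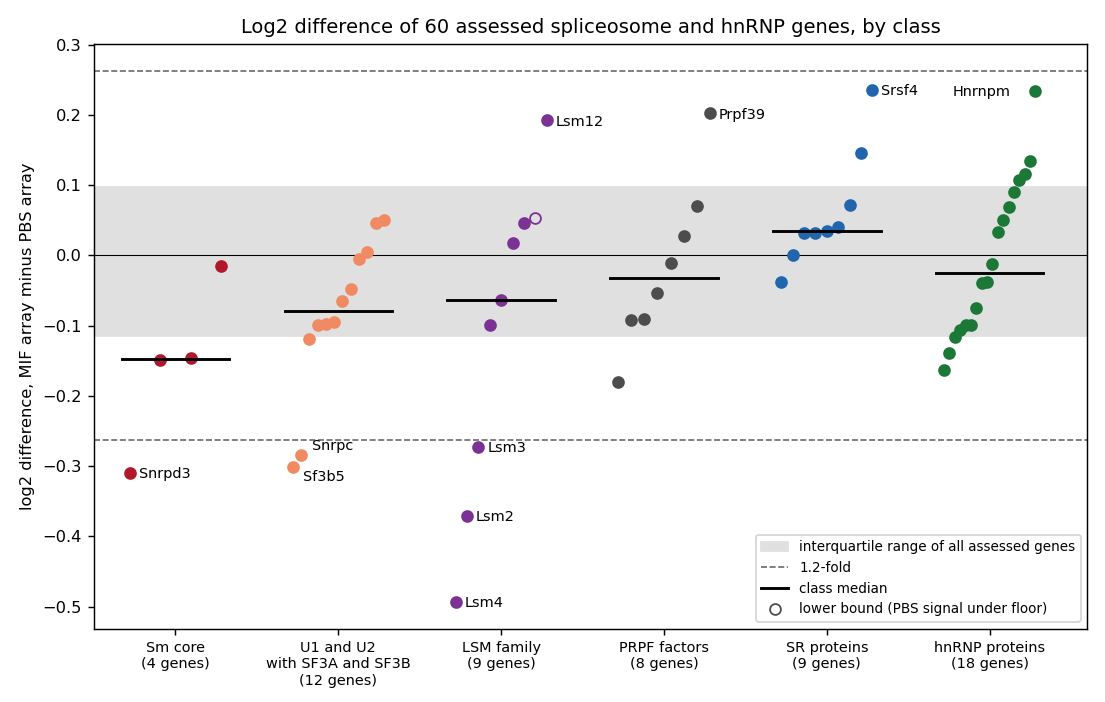
Log2 difference (MIF array minus PBS array, vertical axis) of the 60 assessed genes by class, with 1 point per gene, the class median as a black line, the 1.2-fold limits dashed and the interquartile range of all 5837 assessed genes shaded. The 6 genes below the lower limit belong to the Sm, U1 and U2 and LSM classes, and 8 of the 9 SR protein genes lie above 0 (4 of 9 with median-centred columns).

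The promoters of the genes with the largest differences are shown to give the sequence context of the genes that were lower and higher. They come from RefSeq for the mouse assembly GRCm38.p6, whose table matched 54 of the 62 genes, and run from 120 bases before to 30 bases after the first start site listed for the gene. Of the 6 lower genes, Lsm2, Lsm3, Snrpd3 and Snrpc had an entry. Capitals mark matches, on either strand, to short motifs that are known to be bound by ETS factors (CCGGAAG), NRF1 (GCATGCG), YY1 (AGATGGC) and Sp1 (GGGCGG). The Lsm2 stretch lies at chr17:34981734-34981883 (plus strand), that of Lsm3 at chr6:91515915-91516064 (plus strand), that of Snrpd3 at chr10:75517922-75518071 (plus strand) and that of Snrpc at chr17:27839967-27840116 (plus strand). Srsf4, at chr4:131873517-131873666 (plus strand), and Hnrnpm, at chr17:33685429-33685578 (minus strand), are shown beside them as the members with the largest differences towards MIF.
Lsm2: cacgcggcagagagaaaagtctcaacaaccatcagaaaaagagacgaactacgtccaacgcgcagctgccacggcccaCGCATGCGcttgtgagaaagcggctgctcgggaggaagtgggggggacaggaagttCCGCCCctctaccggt
Lsm3: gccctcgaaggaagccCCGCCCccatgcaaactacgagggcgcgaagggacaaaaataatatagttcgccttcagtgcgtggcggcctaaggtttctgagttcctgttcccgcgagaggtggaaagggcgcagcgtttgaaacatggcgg
Snrpd3: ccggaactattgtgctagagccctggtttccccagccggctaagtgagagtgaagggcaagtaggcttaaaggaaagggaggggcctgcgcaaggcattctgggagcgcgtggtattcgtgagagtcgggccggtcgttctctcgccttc
Snrpc: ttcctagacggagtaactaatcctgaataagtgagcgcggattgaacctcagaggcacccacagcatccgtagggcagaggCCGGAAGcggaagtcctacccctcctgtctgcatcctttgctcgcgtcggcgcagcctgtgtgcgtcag
Srsf4: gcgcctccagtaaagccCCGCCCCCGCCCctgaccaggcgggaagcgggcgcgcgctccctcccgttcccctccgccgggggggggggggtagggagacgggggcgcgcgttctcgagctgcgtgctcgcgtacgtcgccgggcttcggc
Hnrnpm: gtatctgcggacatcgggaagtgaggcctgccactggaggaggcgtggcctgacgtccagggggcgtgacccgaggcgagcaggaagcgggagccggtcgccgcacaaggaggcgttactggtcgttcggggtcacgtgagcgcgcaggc

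The printed stretches of the 4 lower genes did not share 1 motif. Lsm2 holds the NRF1 letters on both strands, overlapping, and the Sp1 letters, Lsm3 holds the Sp1 letters, Snrpc holds the ETS letters and Snrpd3 holds none of the 4 motifs there. Srsf4 holds the Sp1 letters at adjoining places, and Hnrnpm holds none of the 4. Outside the printed stretches, but within 300 bases, Snrpd3 also holds the Sp1 letters, which Lsm2 and Lsm3 hold too, and Srsf4 the ETS letters. In the whole window of 300 bases, the ETS letters were in 8 of 10 promoters of the U1 and U2 class, in 2 of 3 of the Sm class, in 3 of 10 of the PRPF class, in 3 of 9 of the SR class, in 2 of 16 of the hnRNP class and in 0 of 6 of the LSM family. That is 18 of the 54 members (33.3%), against 19.04% of 7113 promoters of genes in the table and 9.12% of all 27025 promoters. The NRF1 letters were in 4 of the 54 (7.41%), near the 6.89% of genes in the table, and in 3.64% of all promoters. Those 4 were Lsm2, Lsm8 and Lsm10, of 6 LSM promoters, and Hnrnpl. Their log2 differences were -0.37 for Lsm2, 0.02 for Lsm8, -0.10 for Lsm10 and -0.04 for Hnrnpl. Whether the motif bears on the difference was not tested. The Sp1 letters were in 38 of the 54 promoters (70.4%), against 64.7% of genes in the table and 35.9% of all promoters. By class they ranged from 1 of 3 promoters of the Sm class to 6 of 6 of the LSM family. The YY1 letters were in 5 of 54, against 7.69% and 6.45%. The CCAAT box, searched as CCAAT, was in 27 of 54, against 38.3% and 37.9%, and the letters TATAAA were in 5 of 54, against 7.72% and 14.2%. A match describes the letters of the window and not the binding of a factor.

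Sm proteins form the ring that encircles the small nuclear RNAs U1, U2, U4 and U5. The table held 4 of the 8 Sm genes listed, and with the scaling used all 4 had a lower signal on the MIF array, with a median log2 difference of -0.15. Snrpe turned to 0.02 with quantile normalization and to 0.03 with the trend of the difference with signal removed. Snrpd3 went from 1134 with PBS to 915 with MIF, a 1.24-fold lower signal. Only 233 of the 5837 assessed genes had a lower difference. Snrpb, the Sm protein against which many lupus autoantibodies are directed, was at 2345 and 2115. Snrpg was at 4432 and 4003, and a second probe set gave a similar ratio at 1789 and 1656. Snrpe was nearly equal at 4556 and 4509. Apart from Snrpd3, the Sm genes thus lay within 1.2-fold.

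LSM proteins have the same fold as Sm proteins. LSM2 to LSM8 form the ring at the end of U6, and with LSM1 in place of LSM8 they form a cytoplasmic ring that takes part in messenger RNA decay. The 9 LSM genes had a median of -0.06, with 5 lower and 4 higher, and they were the widest class, from -0.49 to 0.19. Lsm4 went from 2199.7 with PBS to 1562 with MIF, a 1.41-fold lower signal, and 47 of all assessed genes had a lower difference. Lsm2 was 1.29-fold lower, at 471 and 364. Lsm3 was 1.21-fold lower, at 1254 and 1038.

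Other proteins of the same ring did not follow by that amount. Lsm7 was at 468 with PBS and 448 with MIF, and Lsm8, the subunit particular to the U6 ring, was at 1119 and 1132. Lsm1, the subunit particular to the decay ring, was at 336 and 347. The 5 assessed genes of the U6 ring had a median of -0.27, a group set apart after the values were seen and so only a description. Lsm10 belongs to the U7 particle that processes histone messages, and it was at 367 and 343.

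The remaining LSM genes, Lsm12 and Lsm14b, belong to neither ring. Lsm12 was at 263 and 300.04, a log2 difference of 0.19. Lsm14b, of a family found in cytoplasmic RNA granules, was at 205 on the PBS array, under the floor, and at 240.4 on the MIF array, which is at least 1.04-fold higher. Signals of both were near the floor.

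**Figure D2:**
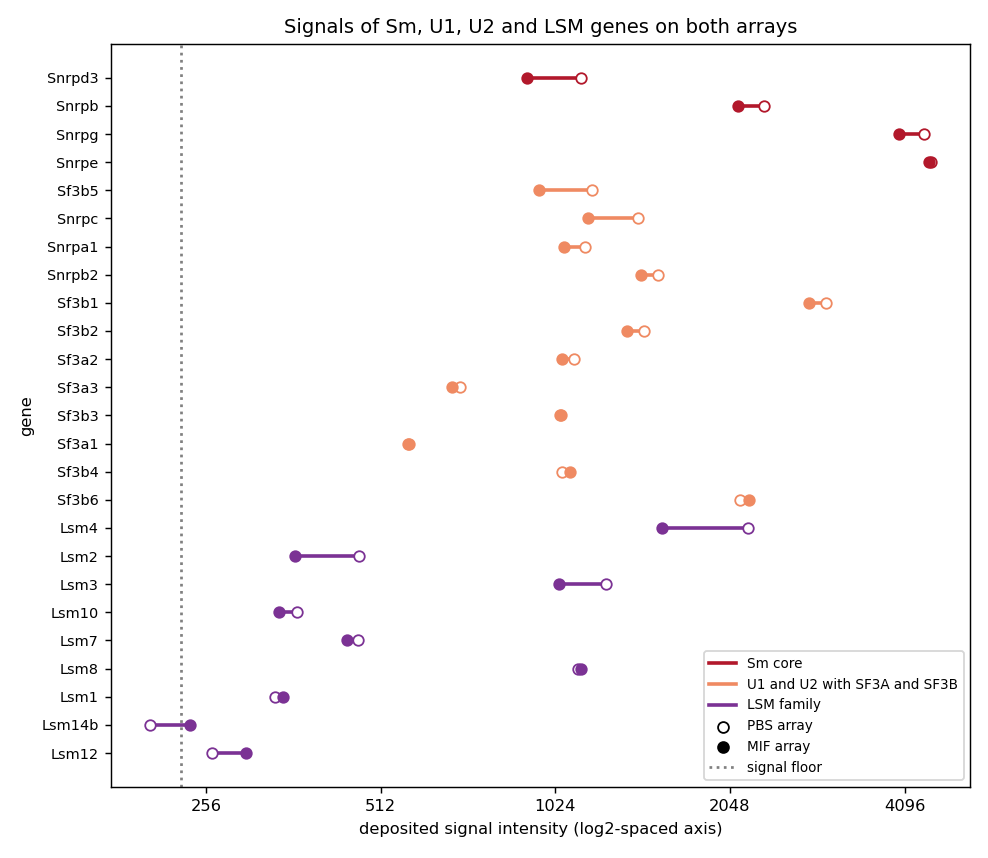
Deposited signal (horizontal axis, log2-spaced) of the 25 Sm, U1 and U2, and LSM genes on the PBS array (open circles) and on the MIF array (filled circles), sorted by difference within each class, with the signal floor dotted. The lines are longest for Lsm4, from 2199.7 to 1562, and Lsm2, from 471 to 364, and the filled circle lies left of the open one for all 4 Sm genes, for Snrpe only with the scaling shown and not after quantile normalization or trend removal.

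The U1 and U2 proteins with SF3A and SF3B numbered 12 genes, all above the floor on both arrays. Their median log2 difference was -0.08, with 9 lower and 3 higher on the MIF array. Snrpc encodes U1-C, which helps the U1 particle hold the start of the intron. It was 1.22-fold lower, at 1420.7 and 1166. Sf3b5, a small subunit of SF3B, was 1.23-fold lower, at 1183 and 960.2. Both lay further from 0 than any other gene of this class.

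The U2 proteins Snrpa1 and Snrpb2 bind each other and a stem of U2 RNA. Snrpa1 was at 1151 and 1059.8, with 3 of 3 probe sets lower. Snrpb2 was at 1541 and 1439, with 2 of 2 probe sets lower. Sf3b1, the large SF3B subunit that clamps the branch point, was at 2999.5 and 2802 on the probe set used, while a second one went the other way, from 2034 to 2208. The sign of the Sf3b1 difference therefore depended on the probe set. Other SF3 genes were close to equal, between -0.10 for Sf3b2 and 0.05 for Sf3b6, the branch point contact, whose signals were 2131.5 and 2206.

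PRPF genes, named after yeast mutants in RNA processing, had 8 assessed members with a median of -0.03, 5 lower and 3 higher. None reached 1.2-fold. Prpf38a, a factor of the activating spliceosome, was lowest at 840.2 and 742, a log2 difference of -0.18. Prpf39, which is associated with U1, was highest at 0.20, from 261 to 300.3, near the floor. Prpf8, the scaffold of the catalytic centre in U5, was at 2066 and 2169.

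The U4 and U6 protein gene Prpf31 was at 316 and 297, and Prpf6, which bridges the particles of the tri-snRNP, was at 667 and 643. Prpf19, a ubiquitin ligase of the spliceosome, had a log2 difference of -0.09 on the probe set used, -0.20 on a second and 0.36 on the dimmest, at 284 and 363. Prpf4b, a kinase of the spliceosome, was at 824 and 818, with a second probe set at 462 and 533. Prpf38b differed by 0.03. The genes not assessed were Prpf3, a U4 and U6 protein, at 215 and 205, and Prpf40b, at 66.9 and 94.1.

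SR protein genes numbered 9, and 8 of them had a higher signal on the MIF array, all within 1.2-fold. Their median log2 difference was 0.03, and it turned to -0.0017, with 4 of the 9 higher, when the columns were centred on their medians. The side of 0 on which the class lies thus depends on the scaling between arrays. That centring also moved the median of all assessed genes, from -0.01 to -0.05, and the SR median lay above it in both settings. Under the other alternatives the SR median stayed above 0, at 0.06 with quantile normalization and 0.07 with the trend removed. Srsf4 had the largest difference, from 786 to 926, a 1.18-fold higher signal on a single probe set. Srsf2, a nuclear SR protein, was at 4262 and 4713, with 3 of 3 probe sets above the floor higher, from 0.07 to 0.15. Of the 5837 assessed genes, 500 had a larger difference than Srsf4.

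The other SR genes were nearly equal. Srsf3, the smallest of the family, was at 2522 and 2649 on the probe set used. Of its 6 probe sets 5 were higher and 1 lower, and the dimmest, at 236 and 348, gave 0.56 from a PBS signal near the floor. Srsf10 and Srsf11 differed by 0.04 and 0.03 on the probe sets used and by 0.20 and 0.22 on second, dimmer ones. Srsf1, a splicing activator, had 3 probe sets higher and 3 lower, at 3912 and 4001 on the one used. Srsf5, at 5084 and 5199, and Srsf9, at 841 and 842, had 1 probe set each. Srsf6 was the gene with a lower signal, at 2869 and 2794, with 2 of its 3 probe sets higher.

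The hnRNP genes were the largest class, with 18 genes all above the floor on both arrays. Of these, 10 were lower and 8 higher, with a median of -0.02, and none reached 1.2-fold. That median turned to 0.0111 with quantile normalization, where 9 were lower and 9 higher, and above 0 under 3 other alternatives, so the class has no settled direction. Hnrnpm, a splicing regulator, was 1.18-fold higher, from 1041 to 1224. Hnrnpk, which binds cytosine-rich RNA, went from 5194 to 5700.1, a log2 difference of 0.13, and 3 of its 4 probe sets were higher. Hnrnph1 and Hnrnph2, close relatives that bind guanine-rich runs, were higher by 0.11 and 0.12. Their relative Hnrnpf was at -0.08 on the probe set used, which can cross-hybridise, and at 0.09 on the second. Hnrnph3 was at -0.10, from 379 to 354.

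The lowest hnRNP gene was Hnrnpab, from 8843 to 7897 (log2 difference -0.16), with 3 of 5 probe sets lower. Its relatives Hnrnpd and Hnrnpdl, which also bind adenine- and uridine-rich elements, were at 0.09 and -0.10. For Hnrnpdl 4 of the 5 probe sets were higher, up to 0.29 for one at 1039.7 and 1268. Hnrnpr was at -0.14, from 1733 to 1574, with a second probe set at 0.21. Hnrnpc, which coats uridine tracts, was at -0.11, from 5345 to 4966, with a second probe set at 0.14.

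Hnrnpa1, a repressor of splice sites, was at -0.12 with 2 of 2 probe sets lower, from 1669 to 1540.3. Hnrnpa2b1 was nearly equal on the probe set used, at 5741 and 5693. Its 4 probe sets ran from -0.34, on one that can cross-hybridise, to 0.12. Hnrnpu, a nuclear scaffold protein, and Hnrnpl, which binds CA repeats, were both at -0.04. Hnrnpul1, Hnrnpul2 and Hnrnpll were at 0.03, 0.05 and 0.07, and the second probe sets of Hnrnpul2 and Hnrnpll were at -0.06 and -0.0028.

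Genes with several probe sets allowed the signs to be compared within the same RNA. Of 27 members measurable on 2 or more probe sets, 17 had the same sign on the 2 brightest (63.0%), against 64.6% of 1800 genes of the table. The genes with opposite signs on those 2 were Sf3b1, Prpf4b, Srsf1, Srsf6, Hnrnpc, Hnrnpdl, Hnrnpf, Hnrnpr, Hnrnpul2 and Hnrnpll. With all probe sets above the floor counted, both signs were also seen in Sf3b2, Sf3b6, Prpf19, Srsf3, Srsf10, Hnrnpab, Hnrnpa2b1, Hnrnpk and Hnrnpu. Agreement over all probe sets of a gene was thus rarer than the 63.0% for the 2 brightest. The second, dimmer probe set gave the higher difference in 17 of 27 members and in 59.8% of the 1800 genes. None of the 6 genes at least 1.2-fold lower was measurable on more than 1 probe set, so their differences rest on 1 probe set each. Over all 120 member probe sets above the floor, 58 were lower and 62 higher, with a median of 0.0036. Of these, 7 were at least 1.2-fold lower and 3 at least 1.2-fold higher, where 5.74% and 8.67% of the 8151 probe sets with 1 symbol above the floor were.

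**Figure D3:**
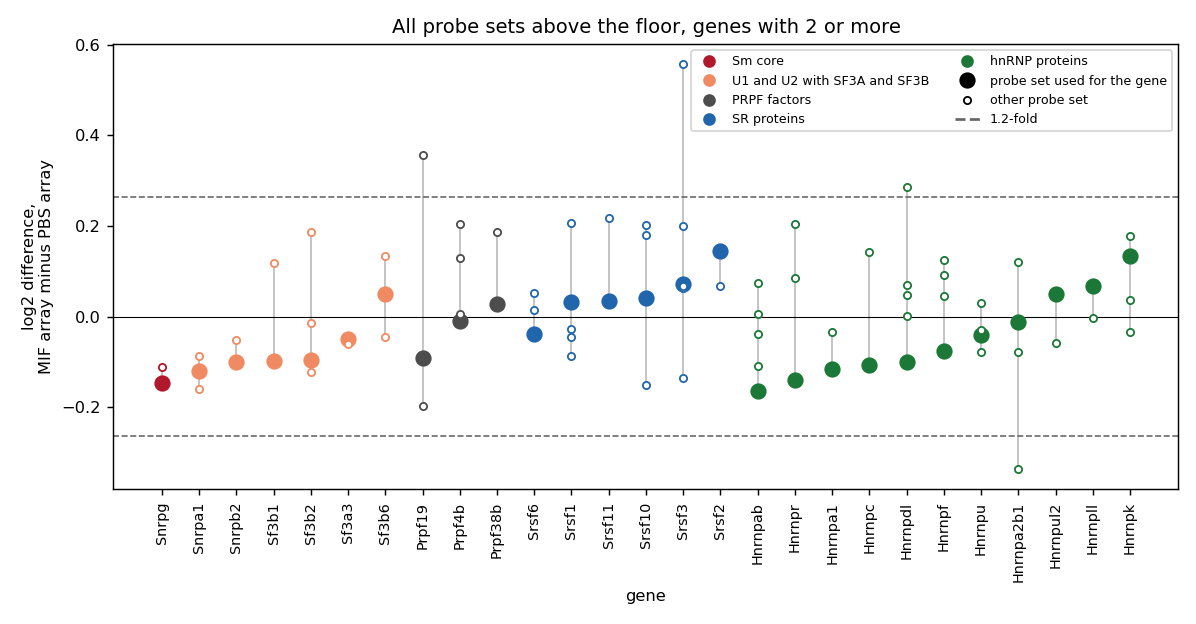
Log2 difference (MIF array minus PBS array, vertical axis) of every probe set above the floor for the 27 genes with 2 or more, the one used for the gene as a large filled point and the others as small open points, with 1.2-fold dashed. For 10 of the 27 genes the second probe set lies on the other side of 0, and the 3 probe sets above the upper limit belong to Prpf19, Srsf3 and Hnrnpdl.

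Splicing genes with other names were set beside these. Of 102 genes listed, 85 were in the table and 76 were assessed, with a median log2 difference of -0.01, 44 lower and 32 higher. At 1.2-fold 4 were lower (5.26%) and none higher, the lower share being near the 6.29% of all assessed genes. Those 4 were Ctnnbl1, a protein of the Prp19 complex, at -0.43, Bud31, a core factor of the active spliceosome, at -0.34, U2af1l4, a relative of the U2AF small subunit, at -0.31, and Eftud2, the U5 GTPase, at -0.28. A second probe set of Bud31 was at -0.20, and one of Eftud2 was at 0.08. The largest differences in the other direction were in the hnRNP-like gene Raly at 0.23, the helicase gene Ddx42 at 0.22, the SR-like splicing activator gene Tra2a at 0.19 and Rbm25 at 0.19.

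Genes of the translation machinery, which like the members are expressed in nearly all cells, had medians of -0.07 for 39 ribosomal protein genes and -0.06 for 48 translation factor genes. At 1.2-fold 2 genes were lower in each list (5.13% and 4.17%) and none was higher in either. The lack of genes at least 1.2-fold higher was thus seen in all 4 lists and was not particular to the spliceosome and hnRNP genes. For the translation factor genes it hangs on the exact limit. Their highest log2 difference was 0.2626, just under the limit of 0.2630.

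**Figure D4:**
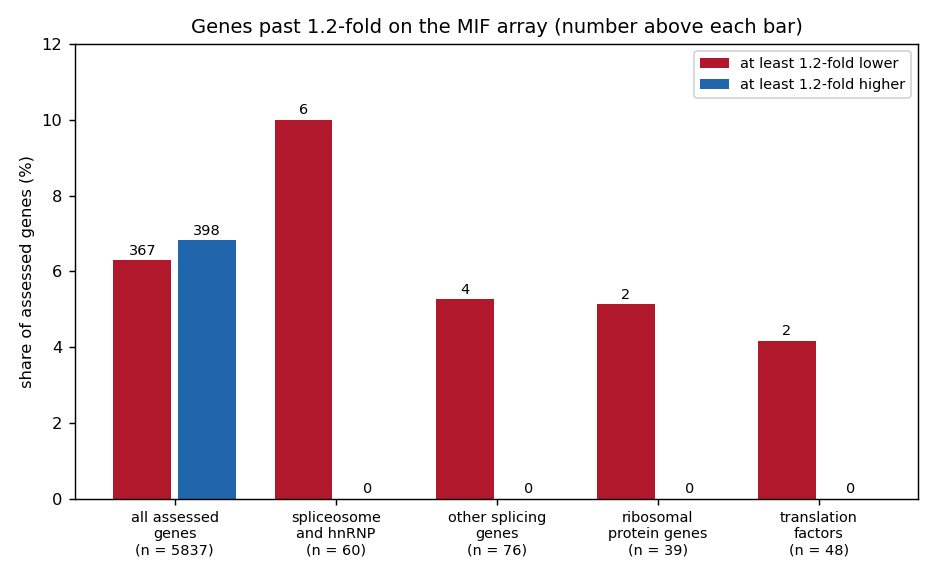
Share of assessed genes (vertical axis, percent) at least 1.2-fold lower (red) or higher (blue) on the MIF array, with the number of genes above each bar, for all 5837 assessed genes and for 4 lists. The members have 6 lower and 0 higher of 60, and the other 3 lists have 4, 2 and 2 lower and 0 higher.

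The differences varied with signal over the table, and the members lay high on that scale, 45 of the 60 above the median mean signal of assessed genes. Genes above the floor were split by mean signal into 4 groups of nearly equal size. In the brightest group the median log2 difference was -0.04 over 1386 genes and -0.01 over the 23 members there. In the next group it was -0.01 over 1386 genes and -0.06 over 21 members. In the dimmer groups it was 0.0042 and 0.0084, and the 7 and 8 members there had medians of -0.05 and -0.07. From the brightest to the dimmest group, 3.61%, 5.48%, 7.79% and 9.81% of genes were at least 1.2-fold higher. The shares at least 1.2-fold lower were 4.69%, 6.28%, 6.57% and 7.07%. The shares over all assessed genes that were set beside the members do not allow for this. With the trend of the difference with signal removed, the median of the members was -0.01 and the same 6 genes were at least 1.2-fold lower.

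The epithelial markers Epcam, Cdh1, Krt8, Krt18, Krt19, Krt20, Vil1, Cdx1, Cdx2 and Car1, the 10 of 11 listed that the table held, all exceeded the floor in both incubations, with a summed signal of 75898 with PBS and 72837 with MIF. Of 12 immune cell markers 8 were in the table and 2, Gzma and Gzmb, were assessed. The summed signal of the 8 was 1828 and 1083. Most of that sum came from Gzma, at 813 with PBS and 403 with MIF, and Gzmb, at 541 and 282. The other 6 were under the floor on both arrays, so the sum says little about immune markers other than these 2. All 7 fibroblast markers were in the table, and their summed signal was 751 and 1877, although only Vim, Dcn and Col3a1 were assessed. Dcn was at a log2 difference of 1.53, the highest of all assessed genes, from a PBS signal of 235, near the floor. Col3a1 and Vim were under the floor with PBS and were higher by at least 1.26 and 0.13. The 2 endothelial and smooth muscle markers in the table were under the floor on both arrays. In RNA of a mixed preparation, fewer cells of a type and less RNA per cell cannot be told apart, and the part of these marker differences in the results above was not tested.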

How the data were processed

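Each incubation was measured on 1 Affymetrix array, from Trizol RNA labelled as biotinylated cRNA, per the labels' protocols. The authors deposited 1 signal intensity per probe set; the linear scale was inferred from the values, and how probes were summarised and arrays scaled is not given. After 61 control probe sets were left out of 15340, names came from GEO's platform annotation (14049 probe sets with 1 symbol, 490 with several, 740 with none), updated by Entrez ID for 14034 through the gene table of GRCm38.p6.

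Column medians were 337 and 346, closer than the log2 limit of 0.1 for centring, and columns were used as deposited. Values below the floor, the 40th percentile without controls, were set to it. Genes below it in both columns (2884) were not assessed, and those below it in 1 column (150 for PBS, 142 for MIF) have a lower bound. A gene counted when past 1.2-fold.

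Members, classes and lists were chosen with earlier results of these data known. Values are given for the 10 largest differences each way, class extremes, opposed second probe sets, signals under the floor and the 4 largest each way among other splicing genes; further members are named to account for each class. Promoters, motifs and the division of LSM genes by ring were chosen after the values were seen. The closing section gives the alternatives tried, with a loess span of 0.3. On simulated data with 5740 genes, 200 of 200 planted log2 differences of -0.5 were counted and 0 others. Dim genes were not simulated. The planted value lay past the log2 limit of 0.263 and past the difference of every member. The run therefore checks the counting step only, and gives no rate of missed or false calls for the real arrays. Tools were Python 3.11.15 with numpy 2.4.6 and pandas 2.3.3, statsmodels 0.14.6 for loess and matplotlib 3.10.9 for figures.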

Additional observations from a re-analysis of the deposited data

How the results depend on the processing

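The same 6 genes were at least 1.2-fold lower under median centring, quantile normalization, the floor at the 20th percentile and no floor. They were also lower with the loess trend removed and when probe sets that can cross-hybridise were dropped. Over these settings the share of all assessed genes that were lower moved between 6.13%, without those probe sets, and 10.3%, with no floor. With no floor the 6 of 62 members lay below that share. A floor at the 60th percentile left 5 of 50 members, as Lsm2 lay under it, where 5.49% of all assessed genes were lower. With the mean of probe sets there were 5 of 54, of which 4 were shared, where 5.75% of all assessed genes were lower. Snrpd3 and Sf3b5 fell under the floor, since dim probe sets enter that mean. Sf3b6 came in at -0.264, just past the log2 limit of 0.263. Its mean includes a probe set far under the floor, at 17.4 with PBS and 7.6 with MIF. The Sf3b6 probe sets above the floor lay between -0.05 and 0.13. At 1.5-fold and 2-fold the count was 0. The count higher was 0, but 1 with no floor (Prpf40b), where 15.6% of all assessed genes were higher. It was also 1 with the mean of probe sets, where 7.30% of all assessed genes were higher. That gene was Hnrnph1, with a lower bound of 1.32 on the log2 scale, from a dim second probe set. The median of the members turned to 0.0186 with the mean of probe sets and lay between -0.06 and -0.01 under the other alternatives. Over the members assessed in both settings, the difference shifted by more than 0.13 for 7 of 54 with the mean of probe sets (Hnrnpa1, Hnrnpdl, Hnrnph1, Hnrnpr, Sf3b1, Sf3b4 and Sf3b6), for Lsm14b, to 0.23, when the floor was lowered or dropped, and for Hnrnpf, to 0.09, on probe sets that do not cross-hybridise. The median of the other splicing genes lay between -0.05 and -0.0010 throughout. Some class medians changed sign or moved. That of the SR proteins was -0.0017 under median centring. That of the hnRNP genes was 0.0111 with quantile normalization, 0.0107 with that higher floor, 0.0399 with the mean of probe sets and 0.0135 with the loess trend removed. That of the PRPF factors was 0.0700 with the mean of probe sets, and that of the LSM family was -0.27 with the higher floor, where fewer genes were assessed. The cause of the other changes was not tested. No paired analysis was possible because each group has 1 array. No replicate could be left out for the same reason. Signals near the floor limit Lsm12, Lsm14b and Prpf39.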
